A study of Mus musculus with 4 samples.

Results

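The 8 genes described here are the ligands Hbegf, Areg, Ereg, Tgfa and Btc of the epidermal growth factor (EGF) receptor and the receptors Egfr, Erbb2 and Erbb3. They were measured in mouse kidney RNA on 4 one-colour Agilent arrays and were chosen by name, with every array probe that carries one of these names. This gave 21 probes for 8 of the 21216 named genes on the array. The 4 groups were a kidney labelled NLRC5-/- after ischemia and reperfusion (knockout injured), a C57BL/6 wild type kidney after the same operation (wild type injured), an NLRC5-/- kidney after a sham operation (knockout sham) and a wild type kidney after a sham operation (wild type sham). All mice were 8 weeks old and shared the C57BL/6 background per the labels. The injured mice had 30 min of ischemia of both kidneys. The sample titles and the design text give 48 h of reperfusion and the sample descriptions give 24 h, and this conflict was not resolved. The sources used here do not say which part of Nlrc5 was deleted, or whether an array held RNA of 1 mouse or of a pool.

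Each group held 1 array, so no difference between 2 arrays has a replicate check or a p-value. Both knockout arrays shared 1 scan identifier and both wild type arrays another, so that scan and genotype cannot be told apart. Each comparison of injured with sham lies within 1 scan. The sample titles also carry an R for wild type sham and knockout injured and an L for knockout sham and wild type injured. What these letters mean was not determined here, and they differ within each pair of injured and sham arrays. Xist was well above background on the knockout sham array only, and the 4 Y-linked genes listed were well above background on the other 3 arrays only, a female pattern against a male one, so sex and treatment cannot be told apart within the knockout, nor sex and genotype between the sham kidneys. Of 41142 probes, the share well above background ran from 67.3% to 74.6% and was lowest on the wild type injured array, whose 75th percentile of signal was 176.6 against 352.6 to 452.7 on the other 3 arrays. All 8 proximal tubule markers (among them Lrp2 and Slc34a1) and all 4 thick ascending limb markers (among them Umod) were well above background on all 4 arrays.

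The ligands are made as membrane-anchored precursors, and proteases such as ADAM17 release the active growth factor. Areg, Tgfa and Egf bind the EGF receptor, while Hbegf, Btc and Ereg also bind ErbB4. Erbb2 encodes a receptor with no known ligand of its own, which pairs with the others, and Erbb3 one whose own kinase is weak and which binds neuregulins. Ligand binding pairs the receptors and starts the RAS to ERK and the PI3 kinase to AKT relays, and in kidney tubules this signalling is known for its part in repair after ischemia and, when sustained, in fibrosis.

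The Areg probe is shown because Areg had the widest gap between injured and sham kidneys among the members. It lies at chr5:91570090-91570149 of the mm9 build, on the plus strand, and reads part of the amphiregulin coding sequence.
Areg probe A_52_P482897: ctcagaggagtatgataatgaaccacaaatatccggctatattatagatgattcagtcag
The receptor probes that follow come from the same stretch of the kinase domain in 3 relatives and show how far each probe is set apart from the next receptor. In the Erbb2 and Erbb4 lines, capitals mark bases shared with the first Erbb3 probe. In the first Erbb3 line they mark the 33 bases shared with both.
Erbb2 probe A_51_P216179, chr11:98295824-98295883, plus strand: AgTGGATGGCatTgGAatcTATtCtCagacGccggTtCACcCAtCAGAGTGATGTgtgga
Erbb3 probe A_51_P342050, chr10:128009195-128009254, minus strand: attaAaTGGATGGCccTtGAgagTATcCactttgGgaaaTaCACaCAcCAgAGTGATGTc
Erbb4 probe A_51_P396034, chr1:68125116-68125175, minus strand: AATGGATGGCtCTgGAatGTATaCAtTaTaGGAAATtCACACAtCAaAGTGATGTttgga
The first Erbb3 probe matched the Erbb2 probe at 35 of 56 aligned bases (62.5%) and the Erbb4 probe at 44 of 56 (78.6%). A further Erbb3 probe reads 40 of the same bases, in capitals in its line, and its coordinates span more of the genome than its own 60 bases.
Erbb3 probe A_51_P488243, chr10:128009215-128009503, minus strand: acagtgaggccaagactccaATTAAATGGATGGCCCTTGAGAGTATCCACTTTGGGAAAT
Promoters of 5 of the 8 members were searched in the RefSeq GRCm38.p6 table (Areg, Tgfa, Btc, Egfr and Erbb2), and none of Hbegf, Ereg or Erbb3. The 250 bases before the Areg start are shown because, of those searched, the Areg window was the only one with a full cAMP response element. The motifs searched, on both strands, were the response element TGACGTCA, its shorter form TGACGT (which overlaps it), the AP-1 motif TGANTCA, the GC box GGGCGG and the TATA box TATAAA. The window lies at chr5:91139349-91139598 of GRCm38.p6, on the plus strand, and capitals mark the response element.
Areg promoter: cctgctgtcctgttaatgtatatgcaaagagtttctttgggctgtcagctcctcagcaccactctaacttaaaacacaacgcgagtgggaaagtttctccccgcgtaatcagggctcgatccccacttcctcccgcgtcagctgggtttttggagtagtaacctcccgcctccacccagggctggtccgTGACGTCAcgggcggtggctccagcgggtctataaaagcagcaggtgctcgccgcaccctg
Counting the last base before the start as -1, the response element began at -61, a GC box at -52 and the TATA box at -31. The same element was found in 1.55% of 32851 promoter windows of this length, the TATA box in 12.4% and the GC box in 32.7%. GC boxes also began at -126 and -15 before Tgfa and at -9 before Egfr, and the AP-1 motif, held by 6.75% of all windows, was found in none of the 5. These matches describe letters only.

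By their brightest probes the ligands Hbegf, Areg and Tgfa had their highest scaled signal on the wild type injured array. All 3 were at least 2-fold lower in the knockout injured kidney. With an alternative background correction (normexp on all spots, below) only 1 member was. For Tgfa the other probe gave the opposite direction. Btc went the other way, with lower signal in both injured kidneys, but this fall was not kept past 2-fold under alternative background corrections (normexp, below). The brightest probes of the receptors Egfr, Erbb2 and Erbb3 stayed within 2-fold in every comparison. Values are log2 of the processed signal minus the 75th percentile of the array, and each gene is given first by its brightest probe. Folds thus include this scaling, by 352.6 on the knockout injured array and 176.6 on the wild type injured array. Unscaled signals on these arrays were 874.8 and 1135.7 for Hbegf, 16.3 and 37.3 for Areg and 51.7 and 56.1 for Tgfa. Unscaled Tgfa was highest in the knockout sham kidney, at 57.5. Among probes printed at 5 or more spots, 2 single spots on one array differed with an SD of 0.15 (245 probes), or 0.33 for the 98 probes with a mean value below -3. That is the error of spots within an array and leaves out the difference between animals.

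**Figure D1:**
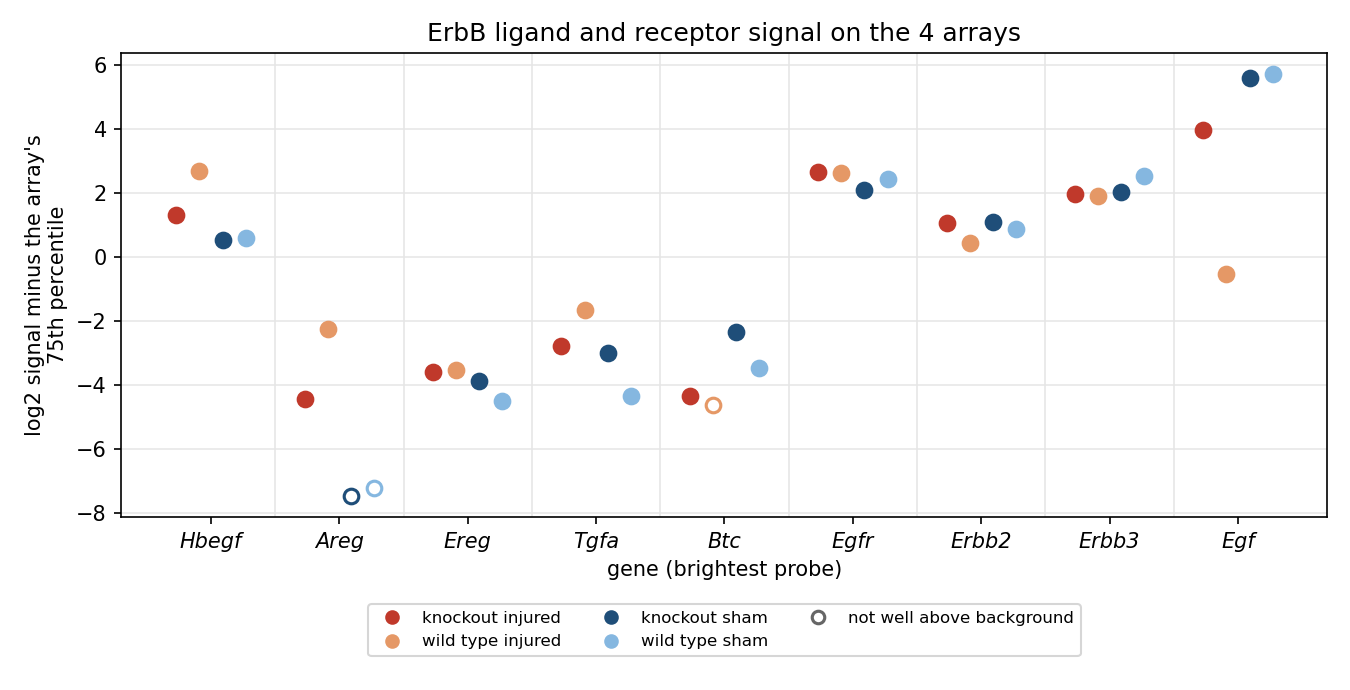
Log2 signal minus the 75th percentile of the array (vertical axis) for the brightest probe of each of the 8 members and of Egf, with 1 point per array; open points were not well above background. Hbegf, Areg and Tgfa are highest in the wild type injured kidney, and Egf is lowest there.

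Hbegf encodes heparin-binding EGF-like growth factor and has 1 probe. Its value was 1.31 in the knockout injured kidney, 2.69 in the wild type injured kidney, 0.55 in the knockout sham kidney and 0.61 in the wild type sham kidney. Both injured kidneys were above both sham kidneys, and the sham kidneys differed by less than the spot error. Injured minus sham was 0.76 in the knockout (1.69-fold) and 2.08 in wild type (4.21-fold), a difference between the responses of -1.32. The injured knockout kidney was 2.59-fold lower than the injured wild type kidney.

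Areg encodes amphiregulin and also has 1 probe. It was -4.43 in the knockout injured kidney and -2.24 in the wild type injured kidney, and its probe was not well above background in either sham kidney, with -7.46 in the knockout and -7.22 in wild type. Such a probe has only an upper limit there. The limit used was the dimmest signal that still passed as well above background on the array, or the probe's own signal where that was brighter. Against that limit Areg was at least 2.20-fold higher after injury in the knockout and at least 9.41-fold higher in wild type. The injured kidneys, both measured, differed by -2.19, with the knockout 4.56-fold lower, and no fold can be given between the sham kidneys. The way background is removed bears on these values. When normexp was fitted without flagged spots, the wild type difference after injury was 1.55, that of the knockout 0.59 and that between the injured kidneys -1.03, and with normexp on all spots the last turned to 0.45.

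Tgfa encodes transforming growth factor alpha. Its brighter probe (A_52_P555423, chr6:86222191-86222250) was -2.77 in the knockout injured kidney, -1.66 in the wild type injured kidney, -2.98 in the knockout sham kidney and -4.33 in the wild type sham kidney. Injured minus sham was 0.21 in the knockout and 2.67 in wild type (6.37-fold), and the responses differed by -2.46. The wild type difference was 1.60 with normexp fitted without flagged spots, 1.59 with normexp on all spots and 0.97 with the mean over probes, and the difference between responses was -1.34, -0.27 and -0.77 under these settings. The knockout was 1.11 lower than wild type among injured kidneys and 1.35 higher among sham kidneys. The lowest array was thus the wild type sham kidney, and part of the gap between responses lies in the sham pair, where sex differs too. The other Tgfa probe (A_51_P415126, chr6:86224838-86224897), printed at 10 spots, did not follow it. It was -4.10 in the knockout injured kidney, -4.64 and not well above background in the wild type injured kidney, -4.29 in the knockout sham kidney and -3.92 in the wild type sham kidney. On this probe wild type was lower after injury by at least 1.66-fold and the knockout injured kidney was at least 1.46-fold above wild type, so the direction for Tgfa turns with the probe.

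Ereg encodes epiregulin, and its probes do not settle its level. The probe that was well above background on all 4 arrays (A_51_P157223, minus strand, chr5:91480914-91480973) had -3.57 in the knockout injured kidney, -3.52 in the wild type injured kidney, -3.85 in the knockout sham kidney and -4.50 in the wild type sham kidney. Injured minus sham was 0.28 in the knockout and 0.98 in wild type, just inside 2-fold. This probe lies on the opposite strand from the one designed on the RefSeq transcript (A_51_P171215, plus strand, chr5:91521659-91521720), and together they span 40807 bases of mm9, against a gene length of 19033 bases in the GRCm38.p6 table. The probe on the RefSeq transcript was not well above background on any array. The values above are therefore those of a probe that carries the name Ereg in the files.

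Btc encodes betacellulin. Its brighter probe (A_52_P672689, chr5:91786948-91787007) was -4.33 in the knockout injured kidney, -4.60 and not well above background in the wild type injured kidney, -2.35 in the knockout sham kidney and -3.45 in the wild type sham kidney. Both injured kidneys were below both sham kidneys. Btc was 3.94-fold lower after injury in the knockout and at least 2.23-fold lower in wild type. Under either normexp setting, however, no member was 2-fold lower after injury in either genotype. The fall of Btc past 2-fold thus depends on how background is removed. Among sham kidneys the knockout was 2.14-fold higher, and the injured knockout was at least 1.21-fold above the injured wild type. The other Btc probe was not well above background on any array.

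**Figure D2:**
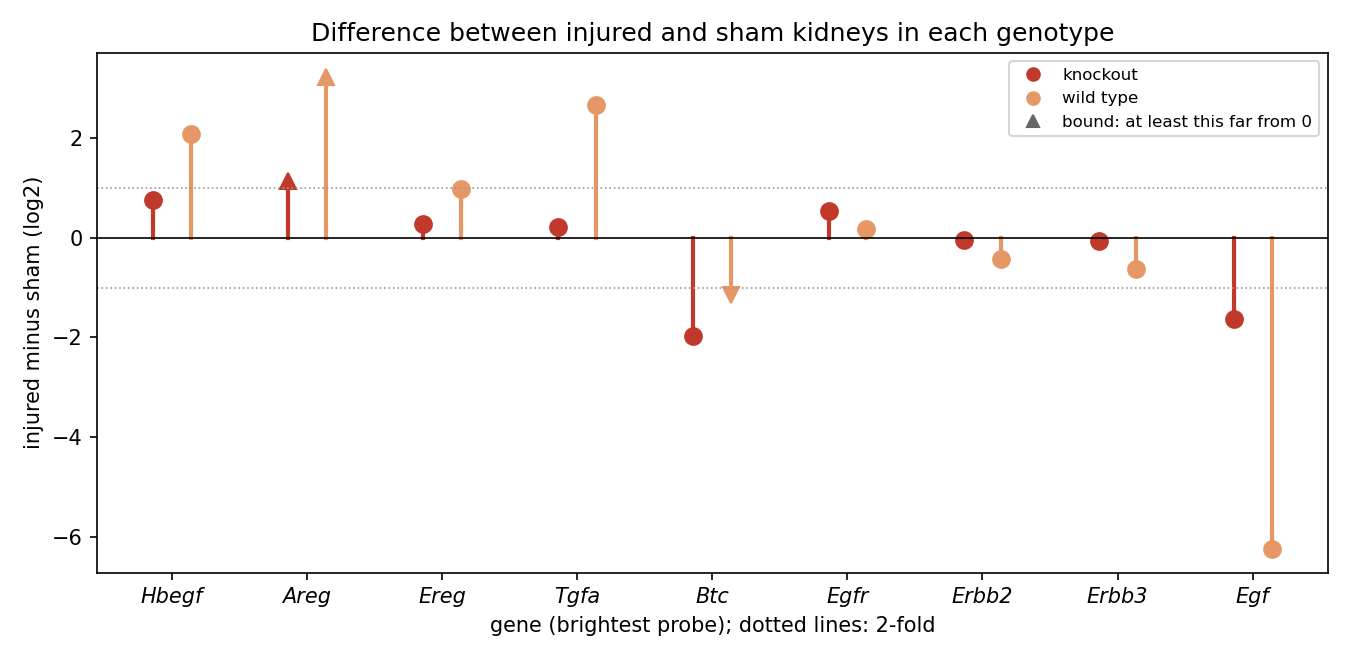
Injured minus sham on the log2 scale (vertical axis) for the brightest probe of each member and of Egf, knockout left of wild type; triangles are bounds, at least this far from 0, and dotted lines mark 2-fold. In wild type 3 ligands lie above 2-fold and Btc below it, and the receptors lie between the lines in both genotypes.

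Counted by brightest probes, 2 of the 8 members were at least 2-fold apart between injured and sham kidneys in the knockout (Areg higher, Btc lower), where 7.68% of all measured genes were. In wild type 4 of 8 were (Hbegf, Areg and Tgfa higher, Btc lower), against 27.9% of all genes. The median over the members was 0.25 in the knockout and 0.58 in wild type, beside 0.02 in the knockout and 0.01 in wild type over all genes. Among injured kidneys 3 of 8 members were 2-fold apart, all lower in the knockout (Hbegf, Areg and Tgfa), against 16.9% of all genes either way (8.88% higher and 8.05% lower). Neither the injured pair nor the wild type comparison uses the knockout sham array. Among sham kidneys 2 of 7 members with a fold were higher in the knockout (Tgfa and Btc), against 7.17% of all genes either way (3.98% higher and 3.19% lower). Over all genes that comparison split into 678 higher and 542 lower, but 442 and 838 when arrays were scaled on the median, 502 and 643 after quantile normalization and 509 and 667 in the authors' deposited table. Median scaling moved the median of all genes from 0.05 to -0.11, and Btc then stood at 0.94, inside 2-fold. The injury response could be compared between the genotypes for 6 members measured on all arrays, and it differed 2-fold for 2 of them (Hbegf and Tgfa, both lower in the knockout), against 19.1% of all genes (9.62% higher and 9.48% lower).

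A limma fit with genotype and treatment as additive terms over the 4 arrays, adjusted by Benjamini-Hochberg over 16609 genes, called 0 genes for injury (0%, smallest adjusted p = 0.404) and 0 for genotype (smallest adjusted p = 0.769). At an unadjusted p under 0.05 it held 11.3% of genes for injury (861 higher, 1016 lower) and 5.49% for genotype (567 higher, 345 lower, but 354 and 549 with median scaling and 450 and 405 after quantile normalization). This fit counts a difference between the genotypes' responses as error. Hbegf was 1.42 higher after injury over both genotypes (SE 0.44, limma adjusted p = 0.430), Areg 4.01 higher (SE 0.58, limma adjusted p = 0.416) and the fitted difference of Btc was -1.57 (SE 0.34, limma adjusted p = 0.430). The Areg and Btc estimates include values that were not well above background. With normexp fitted without flagged spots the Btc estimate was 0.04, and with normexp on all spots it was 0.78. For the 8 members the limma adjusted p ran from 0.416 to 0.686 for injury and from 0.769 to 0.969 for genotype, so none of them passed. In simulated data with 250 genes at each size, this fit found 0 at a log2 change of 1, 0 at 2, 58 at 4 and 199 at 6, so it could seldom call changes of the size of most members. With normexp on all spots 4 members passed for injury, Hbegf (limma adjusted p = 0.0273), Areg (0.000206), Ereg (0.0107) and Tgfa (0.00480). The Ereg value came from the probe on the strand opposite to that of the RefSeq transcript. Of all 16609 genes, 3637 were called higher and 813 lower with normexp on all spots. The normexp background mean of the knockout injured array was -225.2 there, against -0.40 without its 4 spots of lowest net signal. With normexp fitted without flagged spots only Hbegf passed (limma adjusted p = 0.0383), beside 424 genes called higher and 307 lower. Under each of these settings every member had the same SE of 0.40, so these p-values rest on a variance pooled over genes.

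Cell type markers differed between the same arrays. Of 5 listed for injured tubule (Havcr1, Lcn2, Krt20, Sox9 and Vcam1), all on the array, 4 were at least 2-fold higher after injury in each genotype. Over all genes the share higher was 4.46% in the knockout and 14.9% in wild type. The summed level of the 5 markers, in units of the 75th percentile, was 9.29 in the knockout injured kidney, 139.7 in the wild type injured kidney, 1.76 in the knockout sham kidney and 2.79 in the wild type sham kidney. The sum and the ligands Hbegf, Areg and Tgfa were thus highest on the same array, but Btc was not. Krt20 was the highest of these markers on that array, at 6.65. Havcr1 was highest there too, at 3.46 against 0.63 in the knockout injured kidney. Its injured minus sham had the opposite order, 5.53 in the knockout and 3.08 in wild type. Its sham values were far apart, -4.91 in the knockout and 0.38 in wild type. Vcam1 was higher in the knockout injured kidney (0.93) than in the wild type injured kidney (0.14). Of the 8 proximal tubule markers, 0 were 2-fold lower after injury in the knockout, against 3.22% of all genes, and 7 in wild type, against 13.0%. They summed to 543 in the knockout injured kidney, 199 in the wild type injured kidney, 539 in the knockout sham kidney and 655 in the wild type sham kidney. Neutrophil markers, 3 of 4 on the array, summed to 3.08 in the knockout injured kidney, 12.4 in the wild type injured kidney, 6.83 in the knockout sham kidney and 4.62 in the wild type sham kidney, so the wild type injured array was the highest. Macrophage markers, 4 of 4 on the array, summed to 3.14 in the knockout injured kidney, 1.33 in the wild type injured kidney, 2.53 in the knockout sham kidney and 2.31 in the wild type sham kidney. Their members went both ways in wild type after injury, with Adgre1 at -2.82, C1qa at -2.93 and Csf1r at -1.16 but Cd68 at 2.81. Endothelium markers, 5 of 5 on the array, summed to 26.3 in the knockout injured kidney, 6.31 in the wild type injured kidney, 36.5 in the knockout sham kidney and 28.1 in the wild type sham kidney, and fibroblast markers, 4 of 4 on the array, to 38.5 in the knockout injured kidney, 11.9 in the wild type injured kidney, 14.6 in the knockout sham kidney and 20.3 in the wild type sham kidney. Urothelium markers, 5 of 5 on the array, summed to 1.11 in the knockout injured kidney, 0.854 in the wild type injured kidney, 1.49 in the knockout sham kidney and 4.41 in the wild type sham kidney. Adipocyte markers, 4 of 4 on the array, summed to 0.0811 in the knockout injured kidney, 0.174 in the wild type injured kidney, 0.231 in the knockout sham kidney and 26.5 in the wild type sham kidney, so that fat markers set the wild type sham array apart. Erythroid markers, 2 of 3 on the array, summed to 0.485 in the knockout injured kidney, 0.904 in the wild type injured kidney, 32.0 in the knockout sham kidney and 3.76 in the wild type sham kidney. These sums include markers not well above background. Of the 4 adipocyte markers, 1 was well above it in the knockout injured, 2 in the wild type injured and 2 in the knockout sham kidney. In the wild type injured kidney 2 of 5 urothelium and 1 of 2 erythroid markers were. The part of these cell types in the values of the members was not tested. In whole kidney RNA, fewer cells of a type and less RNA per cell cannot be told apart.

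The receptors varied less between arrays than the ligands by their brightest probes, and the probes of one receptor differed among themselves. Egfr, the receptor of the ligands above, has 6 probes, all on the plus strand of chromosome 11 and all well above background on every array. The brightest (A_52_P106259, chr11:16813815-16813874, 10 spots) was 2.66 in the knockout injured kidney, 2.62 in the wild type injured kidney, 2.12 in the knockout sham kidney and 2.44 in the wild type sham kidney. Injured minus sham was 0.54 ± 0.03 in the knockout and 0.18 ± 0.05 in wild type (SE over the repeated spots). The knockout sham kidney was the lowest of the 4.

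A probe that the files assign to another Egfr transcript (A_51_P392242, chr11:16787385-16787444, 10 spots) went opposite ways in the genotypes. It was 0.62 in the knockout injured kidney, -0.32 in the wild type injured kidney, 0.00 in the knockout sham kidney and 0.70 in the wild type sham kidney. Injured minus sham was 0.62 ± 0.01 in the knockout and -1.03 ± 0.04 in wild type (SE over the repeated spots), which is 2.04-fold lower in wild type. The injured knockout kidney stood 1.92-fold above the injured wild type kidney. A further probe that the files assign to the same transcript (A_52_P56471) went the same ways but less far. Its injured minus sham was 0.36 in the knockout and -0.26 in wild type. The last probe along the gene (A_52_P175190, chr11:16817630-16817689) was -2.16 in the knockout injured kidney, -1.99 in the wild type injured kidney, -1.77 in the knockout sham kidney and -0.62 in the wild type sham kidney, with the wild type sham array alone high. On it injured minus sham was -0.39 in the knockout and -1.37 in wild type.

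The first probe along Egfr (A_52_P5855, chr11:16655638-16655697) was higher after injury by nearly the same amount in both genotypes, 0.85 in the knockout and 0.87 in wild type. Between it and the others lie 127.9 kb. The remaining probes, A_52_P56471 and A_52_P674338, had injured minus sham of 0.36 and 0.06 in the knockout and of -0.26 and -0.40 in wild type. In wild type the 6 Egfr probes thus ran from -1.37 to 0.87, and the knockout value was above the wild type value on 5 of 6.

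**Figure D3:**
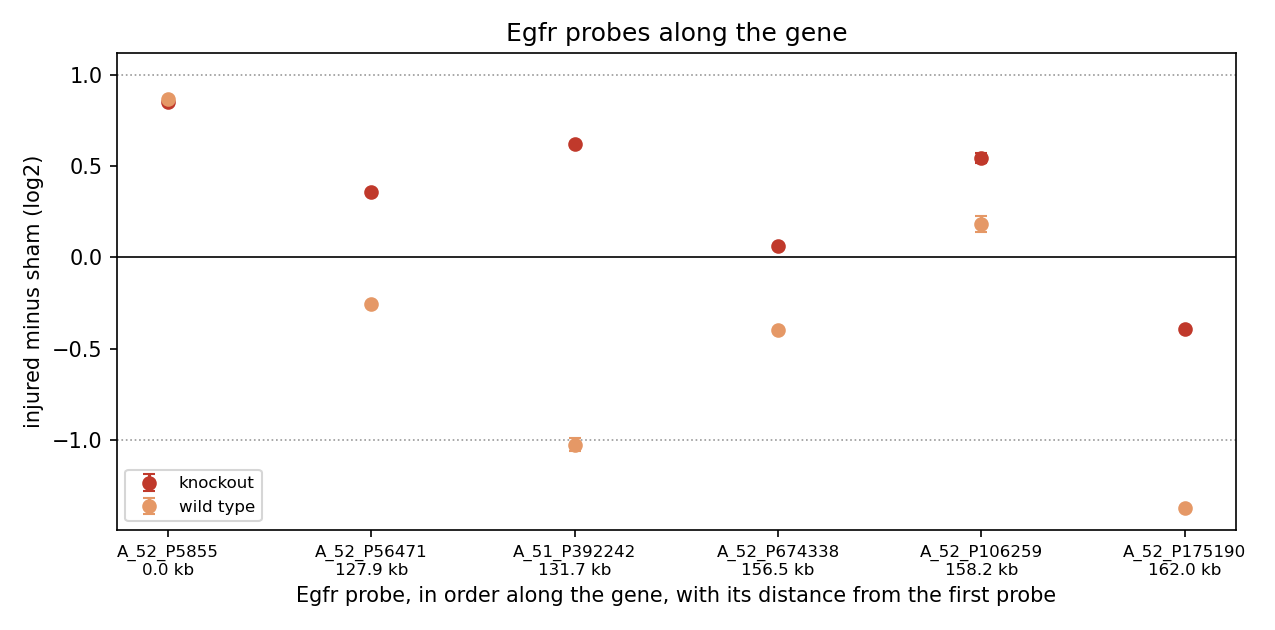
Injured minus sham on the log2 scale (vertical axis) for the 6 Egfr probes in order along the gene, with the distance from the first probe in kb; bars, often smaller than the points, are the SE over repeated spots and are drawn for the 2 probes with 10 spots. The knockout point lies above the wild type point on 5 of 6 probes, and the widest gap is at 131.7 kb.

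Erbb2 has 2 probes. The brighter (A_52_P49250, chr11:98298103-98298162, 10 spots) was 1.08 in the knockout injured kidney, 0.43 in the wild type injured kidney, 1.12 in the knockout sham kidney and 0.87 in the wild type sham kidney. The wild type injured kidney was the lowest, with injured minus sham of -0.44 ± 0.03 against -0.04 ± 0.02 in the knockout (SE over the repeated spots), and 1.56-fold lower than the knockout injured kidney. The kinase probe printed above was -3.34 in the knockout injured kidney, -3.66 in the wild type injured kidney, -3.68 in the knockout sham kidney and -3.98 in the wild type sham kidney. Its injured minus sham was 0.33 in the knockout and 0.32 in wild type, about the spot error of dim probes. Both Erbb2 probes stayed inside 2-fold.

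Erbb3 has 5 probes. The brightest (A_52_P432949, chr10:128004749-128004808) was 1.99 in the knockout injured kidney, 1.92 in the wild type injured kidney, 2.06 in the knockout sham kidney and 2.54 in the wild type sham kidney, with injured minus sham of -0.06 in the knockout and -0.62 in wild type. The overlapping kinase probes printed above followed each other closely. Their injured minus sham was 0.46 and 0.55 in the knockout and -0.07 and 0.10 in wild type. A probe near the start of the gene (A_52_P133607, chr10:128022097-128022156) gave 0.58 in the knockout and -0.10 in wild type. On the 4 probes measured on all arrays the response of the knockout was above that of wild type by 0.46 to 0.68. The fifth (A_51_P414813) was well above background in the 2 knockout kidneys only.

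Egf, another ligand, and Erbb4, the remaining receptor of the family, are not among the 8 members. Egf, which the thick ascending limb and the distal convoluted tubule of the kidney make, was 3.98 in the knockout injured kidney, -0.52 in the wild type injured kidney, 5.61 in the knockout sham kidney and 5.72 in the wild type sham kidney. The wild type injured array stood far below the others. Injured minus sham was -1.62 ± 0.03 in the knockout (3.08-fold lower) and -6.25 ± 0.03 in wild type (75.9-fold lower; SE over the repeated spots), and the injured knockout kidney was 22.7-fold above the injured wild type kidney. The summed level of the 4 thick ascending limb markers differed between injured and sham kidneys by -0.33 in the knockout and -0.83 in wild type on the log2 scale, and that of the 4 distal convoluted tubule markers by -1.94 in the knockout and -2.07 in wild type. Umod and Calb1 carry most of these sums. Within these lists the gap between genotypes was wide for Slc12a1, at -1.49 in the knockout and -3.05 in wild type. It was wide for Pvalb too, at -0.65 in the knockout and, as a bound, at -4.08 in wild type. Cldn16 was at -1.01 in the knockout and -0.99 in wild type, and Calb1 at -2.23 in the knockout and -2.20 in wild type, so neither had a gap. For the other markers of both lists injured minus sham was lower in wild type. The part of these segments in the Egf values was not tested. The limma adjusted p of Egf for injury was 0.430. The brightest Erbb4 probe (A_51_P283698) was 3.80 in the knockout injured kidney, 3.27 in the wild type injured kidney, 3.47 in the knockout sham kidney and 3.64 in the wild type sham kidney, within 2-fold throughout. Of the other 3 Erbb4 probes none was well above background on all arrays. One of them (A_52_P608535) was -3.90 in the knockout injured kidney, -3.11 in the wild type injured kidney, -3.65 in the knockout sham kidney and -5.96 and not well above background in the wild type sham kidney. On it wild type was at least 5.17-fold higher after injury and the knockout sham kidney at least 3.55-fold above the wild type sham kidney, so Erbb4 too differed between probes.

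Of a list of 7 genes, the 6 other ligands and the receptor Erbb4, 6 genes had a fold. In the knockout 1 was at least 2-fold higher after injury and 1 lower, where 4.46% of all genes were higher and 3.22% lower. In wild type 2 were higher and 1 lower, where 14.9% were higher and 13.0% lower (2422 and 2103 genes, but 2116 and 2465 with median scaling). Nrg1, a neuregulin that binds Erbb3 and Erbb4, was -0.50 in the knockout injured kidney, 0.33 in the wild type injured kidney, -1.88 in the knockout sham kidney and -1.73 in the wild type sham kidney. It was higher after injury by 1.38 in the knockout and 2.07 in wild type. Nrg2 was higher by 0.82 in the knockout and 1.13 in wild type, and Nrg4 by 0.83 in the knockout against -0.51 in wild type.

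Among 9 measured genes of ligand shedding and trafficking, 1 was 2-fold higher after injury in the knockout and 4 higher and 1 lower in wild type, with medians of 0.34 in the knockout and 0.93 in wild type. For this and the next lists, the shares over all genes are those just given, 4.46% higher and 3.22% lower in the knockout and 14.9% higher and 13.0% lower in wild type. Mmp7, a metalloproteinase that can release membrane-bound ligands, was higher after injury by 1.65 in the knockout and 4.23 in wild type. Rhbdf2 encodes iRhom2, which takes ADAM17 to the cell surface, and was higher by 0.76 in the knockout and 1.80 in wild type. Rhbdl2, a rhomboid protease, was higher by 0.34 in the knockout and 2.29 in wild type, and Nkd2, which escorts the Tgfa precursor, by 0.60 in the knockout and 1.39 in wild type. The sheddase Adam17 itself was at 0.00 in the knockout and 0.33 in wild type.

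Among 14 measured genes that damp the receptor or ERK, 0 were higher and 1 lower after injury in the knockout, and 4 were higher and 2 lower in wild type, with medians of -0.21 in the knockout and 0.07 in wild type. Dusp4, a phosphatase that acts on ERK, differed by 0.07 in the knockout and 1.62 in wild type. Spry2, an inhibitor of the RAS relay, differed by -0.20 in the knockout and 1.54 in wild type. Socs5 differed by -1.28 in the knockout and -1.61 in wild type. Errfi1, which inhibits the EGF receptor kinase directly, differed by -0.98 in the knockout and -1.23 in wild type. Spry4 differed by -0.79 in the knockout and 0.04 in wild type. Of 20 genes of the relay from receptor to ERK and AKT, 0 were higher and 1 lower in the knockout, and 4 were higher and 1 lower in wild type, with medians of 0.19 in the knockout and 0.06 in wild type. Nras was higher by 0.72 in the knockout and 1.86 in wild type. Pik3r1, a regulatory subunit of PI3 kinase, was higher by 0.70 in the knockout and 1.71 in wild type. Map2k1, the kinase that activates ERK, differed by -1.32 in the knockout and -1.17 in wild type.

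The list of transcripts that ERK signalling is known to induce held the largest share of 2-fold differences among these lists in wild type. After injury 4 of 12 measured genes were 2-fold higher in the knockout and 11 of 13 in wild type, none lower in either, with medians of 0.21 in the knockout and 2.19 in wild type. Between the injured kidneys 10 of 13 were 2-fold lower in the knockout (median -1.60), against 8.05% of all genes. The response was 2-fold lower in the knockout for 9 of 12, against 9.48% of all genes. Many signals other than the EGF receptor induce these transcripts, and the list was chosen with earlier results of these data known. Fosl1, a partner in AP-1, was -3.57 in the knockout injured kidney, 0.19 in the wild type injured kidney, -4.82 in the knockout sham kidney and -4.33 in the wild type sham kidney. It was higher after injury by 1.26 in the knockout and 4.52 in wild type. Plaur, the urokinase receptor, was higher by 1.22 in the knockout and 3.51 in wild type, and Egr1, an immediate early transcription factor, by 0.53 in the knockout and 3.29 in wild type. Egr2 had nearly equal differences, 2.17 in the knockout and 2.57 in wild type. The limma fit for injury held 0 genes of these 5 lists at an adjusted p under 0.05. At an unadjusted p under 0.05, 5 of the 13 ERK-induced transcripts were higher and 1 lower, beside 861 higher and 1016 lower of all 16609 genes.

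**Figure D4:**
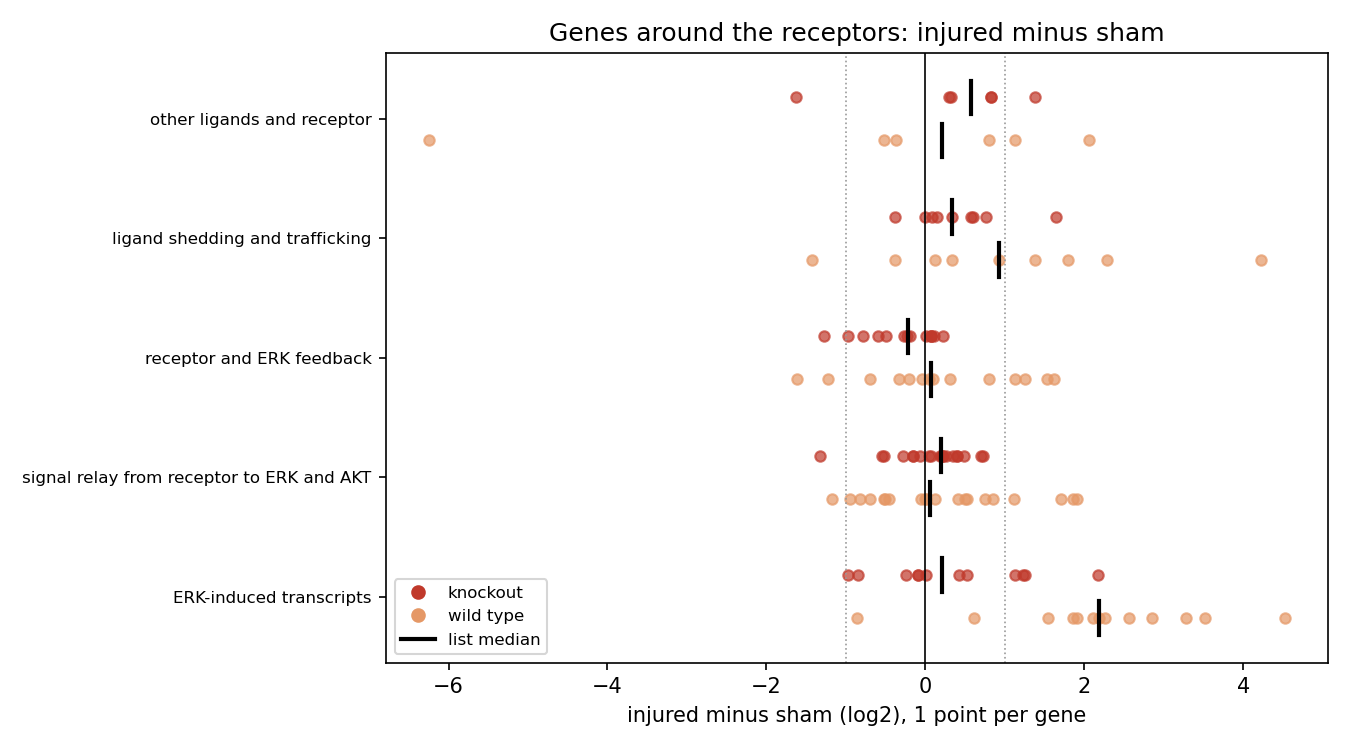
Injured minus sham on the log2 scale (horizontal axis) for the genes of 5 lists around the receptors, 1 point per measured gene, knockout above wild type in each list; black bars are list medians and dotted lines mark 2-fold. The ERK-induced transcripts lie mostly right of the 2-fold line in wild type, with a median of 2.19 against 0.21 in the knockout.

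To find the genes most like each member, values were centred on each gene's own mean over the 4 arrays and compared by root mean square distance among 14994 genes well above background on all of them. For Hbegf the nearest were LOC382202 (0.03) and 1700112J05Rik (0.05), and 78 genes lay within 0.2. For Tgfa they were Gulo (0.09) and Zc3h3 (0.12), and 18 genes lay within 0.2, the fewest of any member compared. For Ereg they were Pxt1 and Olfr95, with 1172 genes within 0.2. The receptors had more such neighbours, 1484 for Egfr (nearest Olfr285 and Rsbn1l), 1690 for Erbb2 (Cnbp and Olfr513) and 1696 for Erbb3 (Prkdc and Srrd). Areg and Btc were not measured on all arrays and were not compared. A likeness over 4 arrays is a description.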

How the data were processed

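RNA of 4 mouse kidneys, 1 array per group by the labels, was analysed from deposited scanner files. Spot intensity values were made by the authors with Agilent Feature Extraction. The file headers name version 10.7.3.1 and the submitters' processing notes version 9.1. Background was subtracted within each array, per the file headers. A deposited table of log2 values made by the authors, with normalization not given in the sources used here, was an alternative (column medians 5.91 to 5.93, rank correlation with the scanner values above 0.9999). Its normalization between arrays stays unknown. No gene centring was seen in it and its direction matched the scanner values.

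Control spots and outlier spots were dropped, and repeated spots of 1 probe were averaged, leaving 41142 probes. Each value is log2 intensity minus the 75th percentile of the array. Naming covered the 41174 probes present before outlier spots were dropped. Probes other than the members were named through the GRCm38.p6 RefSeq table (27651 by accession, 5585 by symbol, 471 by synonym). A further 1264 kept the file's name, 21 are the members and 6182 stayed unnamed. Probe coordinates are mm9 as deposited; no exon annotation of that build was used. The brightest probe stood for a gene. Genes above background on either array entered a 2-fold count, those above on all 4 the difference between responses, and those above on at least 2 the fit by limma 3.58.1 in R 4.3.3, with 1 residual degree of freedom and Benjamini-Hochberg adjustment, checked on simulated data.

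The 8 members, all their probes, Egf and Erbb4 are always given. From each pathway list the 3 largest differences in each genotype are named, and Adam17 was added after its value was seen; 1 gene named by this rule is not reported here. The members and lists were chosen with earlier results of these data known. Alternatives covered background correction, scaling, probe choice, filters, the threshold and each array left out. The number of arrays limits the precision.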

Additional observations from a re-analysis of the deposited data

Results flagged for a closer look

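Among the probes of the 8 members, Egf and Erbb4 that were measured on all 4 arrays, 3 were noted because injured minus sham ran opposite ways in the genotypes by more than the spot error. The response of the knockout minus that of wild type was 1.65 on the log2 scale for Egfr probe A_51_P392242 and 0.61 for Egfr probe A_52_P56471. It was 0.70 for Erbb4 probe A_51_P283698. With 1 array per group, these differences were not tested, and sex differs between the knockout arrays. No group held enough arrays to look for one that lay far from the others.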

How the results depend on the processing

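No paired analysis was possible because each group held 1 array. Members 2-fold apart between injured and sham kidneys numbered 2 in the knockout, and 1 with the mean over probes, 0 with normexp fitted without flagged spots, 0 among genes above background on all arrays and 0 at 4-fold, while normexp on all spots gave 3, all higher; in wild type they numbered 4, and 2 with the mean over probes or among genes above background on all arrays. Between sham kidneys the count of 2 became 1 with median scaling, quantile normalization, the authors' table or genes above background on all arrays, and 0 with either normexp correction, the mean over probes or 4-fold. Between injured kidneys the count of 3 became 1 with normexp on all spots and 1 at 4-fold, and 2 with normexp fitted without flagged spots, the mean over probes or genes above background on all arrays. Responses that differed 2-fold numbered 2, and 1 with normexp on all spots, the mean over probes or 4-fold. Genes called by limma numbered 4450 for injury and 100 for genotype with normexp on all spots, and 731 and 128 with normexp fitted without flagged spots. With 1 array left out the additive fit has no residual degrees of freedom, so each factor was fitted alone, with a lone array assumed to vary like the other group. This gave 0 to 699 genes for injury, the 699 without the knockout injured array, when the wild type array was the only injured one, and 0 for genotype throughout. On the knockout injured array the fitted normexp background mean was -225.2 with all spots and -0.40 without its 4 spots of lowest net signal. Under it Areg (0.45) and Tgfa (0.15) were higher in the injured knockout kidney than in wild type and Btc (0.89) was higher after injury in the knockout. On the other Tgfa probe the value was -0.73 for injury in wild type, 0.55 for knockout minus wild type among injured kidneys and -0.37 among sham kidneys. For the members, 134 of 269 alternative values moved by less than the spot error. Of the rest, 6 turned the direction of a value that was past 2-fold. Counting small values too, 34 changed sign, 16 of them with both values past the spot error. Of 78 alternatives to the 13 values past 2-fold, 55 stayed past it in the same direction.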
